A study of Mus musculus with 9 samples.

Results

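Hepatocytes secrete most of the proteins that clot blood, dissolve clots and carry out complement attack, and 35 genes for such proteins are described here in mouse liver. They were chosen by name for what their products do. They comprise 6 contact and intrinsic pathway factors, 5 extrinsic and common pathway factors, 5 anticoagulants, 4 proteins of fibrinolysis or its inhibition, 4 lectin pathway proteins, 6 terminal complement components, 3 complement regulators and 2 plasma glycoproteins with several functions. Of the 41388 genes in the deposited tables, 34 were matched to these names. Klkb1, which encodes plasma prekallikrein, had no matching identifier, so its RNA level was not analysed here.

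Clotting factors circulate as inactive proteases and cofactors that activate one another in sequence until thrombin converts fibrinogen to fibrin. Antithrombin, protein C and protein S restrain the sequence, and plasmin dissolves fibrin. Complement is a second protease cascade of plasma, in which lectins or antibodies recognise a surface and the terminal components assemble into a pore in the target membrane. Because hepatocytes make these proteins, their plasma levels are used clinically as a readout of the liver's synthetic function.

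All mice were male, congenic on C57BL/6J, fed standard chow and injected intraperitoneally with 25 mg/kg of diethylnitrosamine (DEN), a liver carcinogen, at 14 days of age, with livers taken at 6 months. In the DKO group (Fabp1 Mttp DKO) a germline deletion of Fabp1, which encodes the liver fatty acid-binding protein, was combined with liver-specific deletion of Mttp. In the MttpLKO group Mttp alone was deleted in liver. The control group (Mttp f/f) carried the floxed Mttp alleles. Mttp encodes the microsomal triglyceride transfer protein, which lipidates apolipoprotein B for secretion as VLDL. The driver of the liver deletion is not named in the labels, a deletion of Fabp1 alone was not analysed here, and whole liver was used, with no statement of whether tumours were included. Each library was made from oligo(dT)-selected RNA pooled from 3 mice, with 3 pools per genotype and 9 libraries in all, so that the spread between pools understates that between single mice. The series title concerns tumour formation when VLDL secretion is impaired. The comparisons below ask whether RNAs for secretory products of hepatocytes other than lipoproteins differed in the same livers. Only RNA was measured in these libraries, so the amounts of protein made or secreted are not described.

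Library totals were 23268389 to 23429588 counts in DKO, 26362408 to 27918197 in MttpLKO and 24995426 to 27080442 in control. Mttp stood at 3.24 to 5.79 CPM (counts scaled to the library's effective total) in the DKO libraries. It stood at 6.14 to 9.78 in MttpLKO and at 69.4 to 180.8 in control, as the labels require. Fabp1 stood at 50.3 to 78.0 in DKO, as the labels require, at 3379 to 4984 in MttpLKO and at 6060 to 6845 in control. Every MttpLKO library was below every control library for Fabp1, which the labels do not require, and the cause was not tested. The 9 tested hepatocyte-defining genes, Alb among them, summed to 66731, 86311 and 98713 CPM in DKO. The sums were 97765 to 106740 in MttpLKO and 90622 to 104120 in control. DKO replicate 1 was thus the lowest library, with Alb at 34963 CPM against 45072 to 69252 in the others. MttpLKO replicate 3 stood apart from the other libraries in markers of other cell types. Its 8 B and plasma cell markers summed to 637 CPM, against 24.8 to 53.6 in the other 8 libraries, where Ms4a1 was at 0 in MttpLKO replicate 1. Its 9 stellate cell and fibroblast markers summed to 440.0 CPM, against 217 to 279 elsewhere. Without it, the log2 fold changes for MttpLKO against control were 0.29 for F2 and 0.47 for F13b, against 0.23 and 0.32 with it. Pros1 and Mbl2 are likewise described with and without it. Control replicate 1 held the highest Mttp level, 180.8 CPM against 79.9 and 69.4 in the other control libraries.

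The 34 genes were abundant in every library. The lowest count of any of them in any library was 577, for Masp1, and all passed the filter on low counts. Together they held 3.21%, 3.33% and 3.24% of all counts in the DKO libraries, 3.28%, 3.07% and 3.18% in MttpLKO and 3.20%, 2.99% and 2.89% in control. The ranges of the 3 genotypes overlapped except that every DKO share exceeded every control share. On TMM-scaled library sizes that separation was absent, with sums of 30147 to 33740 CPM in DKO, 31099 to 34048 in MttpLKO and 28306 to 32330 in control. Per length (the authors' RPKM, mean ± SD, n = 3), Ahsg was the highest at 7065 ± 670.5 in DKO, 6453 ± 364 in MttpLKO and 5741 ± 644 in control. Ahsg encodes fetuin-A, an inhibitor of calcium phosphate precipitation in plasma. Vtn (vitronectin), Serpinc1 (antithrombin) and Hrg (histidine-rich glycoprotein) followed in the same order in each genotype. The lowest were Masp1, at 13.4 ± 4.01, 11.4 ± 2.70 and 11.3 ± 1.22 RPKM in DKO, MttpLKO and control, and Pros1, at 9.25 ± 1.32, 11.5 ± 0.378 and 8.68 ± 0.905. These last 2 genes did not differ beyond their spread in MttpLKO, where their order was reversed.

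None of the 34 genes passed the test in any of the 3 comparisons (edgeR quasi-likelihood test, adjusted p under 0.05 over 14741 genes). Over all genes the share called was 0.346% for MttpLKO against control, 0.332% for DKO against control and 0.400% for DKO against MttpLKO. The smallest adjusted p among the 34 was 0.338 for Pros1 between MttpLKO and control, 0.243 for F7 between DKO and control, and 0.401 for Pros1 between DKO and MttpLKO (edgeR). DESeq2 also called 0 of them in each comparison, with smallest adjusted p of 0.145, 0.123 and 0.365. An unadjusted edgeR p under 0.05 was reached by 2 of 34 (5.88%) for MttpLKO against control, where all genes gave 6.97%. For DKO against control it was 1 of 34 (2.94%), where all genes gave 11.2%, and for DKO against MttpLKO 4 of 34 (11.8%), where all genes gave 9.10%. DESeq2 gave 3, 3 and 4 such genes. The shares are near or below those of all genes in each comparison.

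The size of the differences could be bounded closely, since the genes are abundant. The 95% interval of the fold change lay inside 2-fold in both directions for 34 of 34 genes in each comparison, against 76.2%, 75.2% and 75.6% of all genes tested and 95.9%, 95.7% and 95.5% of the 3827 genes at least as abundant as Masp1. It lay inside 1.5-fold for 29 genes between MttpLKO and control, 26 between DKO and control and 27 between DKO and MttpLKO. Those shares of 85.3%, 76.5% and 79.4% are close to the 83.6%, 78.0% and 79.7% of genes as abundant. No fitted fold change of the 34 reached 1.5, while 8.59%, 8.65% and 9.09% of all genes passed that size. The widest intervals belonged to C8b, whose upper bound was a log2 fold change of 0.94 between DKO and MttpLKO and 0.81 between DKO and control. A liver with fewer hepatocytes and one with less of these RNAs per hepatocyte cannot be told apart in such data.

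**Figure D1:**
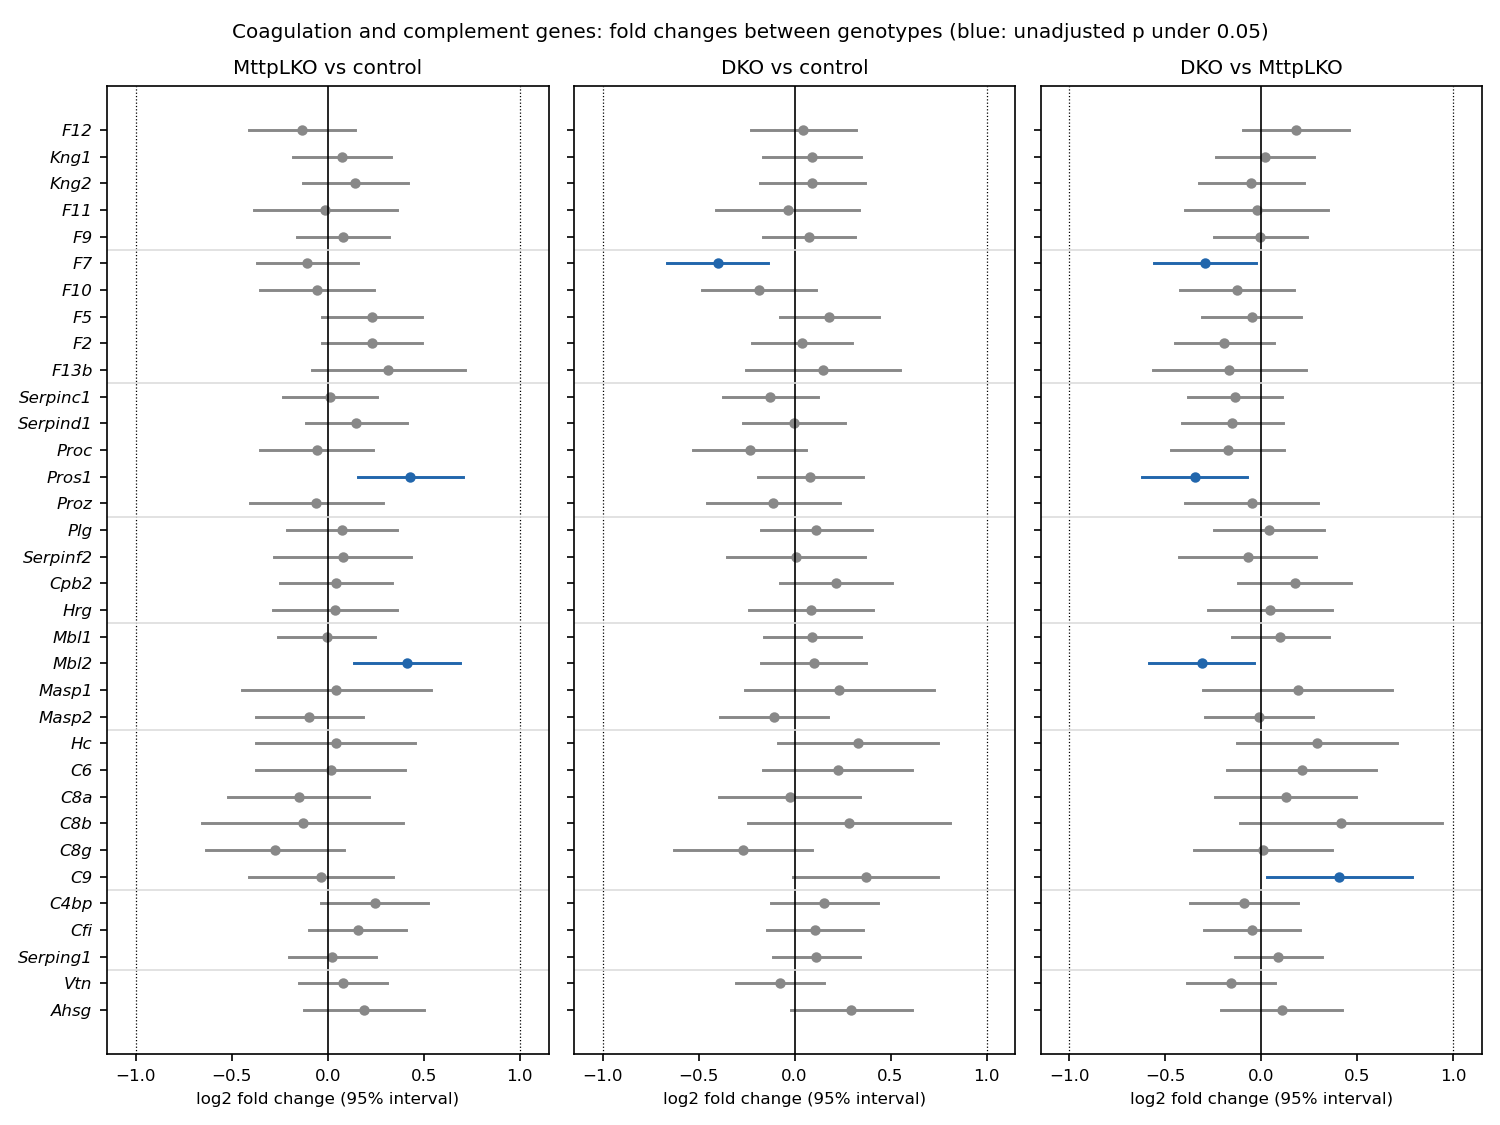
Fitted log2 fold change with its 95% interval (x axis) for each of the 34 genes (y axis, ordered by role), with 1 panel per comparison, dotted lines at 2-fold in either direction and blue marking an unadjusted edgeR p under 0.05. No interval crosses a dotted line, and 2, 1 and 4 genes are blue in the panels from left to right.

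Directions were mixed. The median log2 fold change of the 34 genes was 0.04 for MttpLKO against control, 0.09 for DKO against control and -0.02 for DKO against MttpLKO, beside 0.01, 0.00 and -0.02 over all genes tested. Positive fold changes made up 22, 23 and 15 of 34 (64.7%, 67.6% and 44.1%), where 52.3%, 49.6% and 46.9% of all genes were positive and 47.7%, 50.4% and 53.1% negative. Leaving out MttpLKO replicate 1 turned the medians that involve MttpLKO to -0.04 against control and 0.10 for DKO against MttpLKO. That pool was the highest of the 9 libraries for 15 of the 34 genes and the lowest for none, whereas control replicate 3 was the lowest for 12 genes and the highest for none. The signs of the medians that involve MttpLKO therefore rest on single pools. The median for DKO against control stayed positive but ran from 0.028 to 0.135 when single libraries were left out. All the medians describe these libraries.

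**Figure D2:**
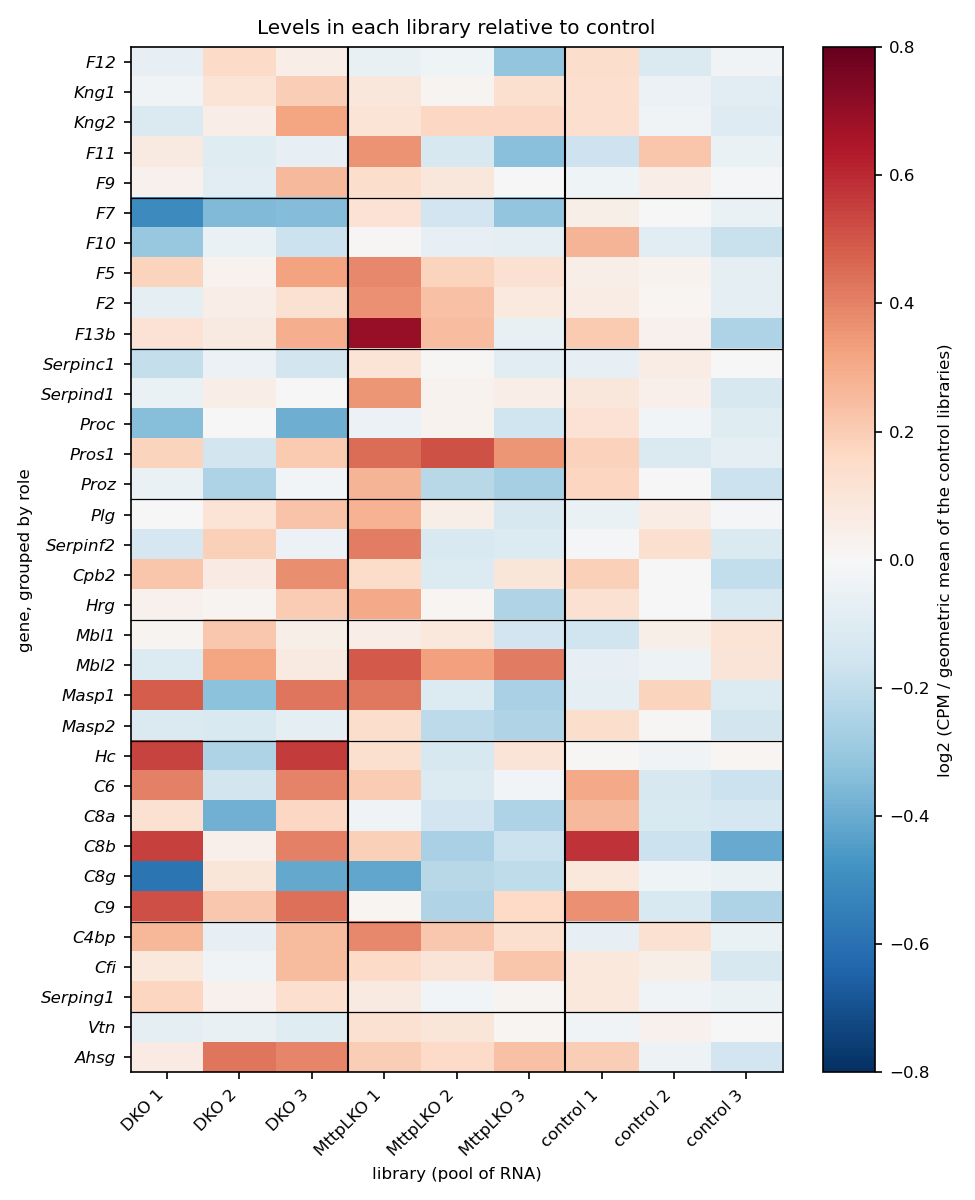
Heat map of log2(CPM / geometric mean of the control libraries) for the 34 genes (rows, grouped by role) in the 9 libraries (columns), red above and blue below the control mean. The reddest column overall is MttpLKO 1, and in the terminal complement block DKO 1 and DKO 3 are red for Hc, C6, C8a, C8b and C9, control 1 is red for the last 4 of these, and C8g is blue in DKO 1 and DKO 3.

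Several of the genes are neighbours in the genome. In the coordinates of the deposited tables, F7, F10 and Proz lie side by side on chromosome 8 between 13026034 and 13075006, Hrg, Kng2 and Kng1 with Ahsg on chromosome 16 between 22892042 and 23082068, and C8b and C8a on chromosome 4 between 104766317 and 104876398. Cfi lies on chromosome 3, as does Mttp. It stood at 448, 414 and 503 CPM in DKO, 468, 452 and 491 in MttpLKO and 447, 435 and 386 in control. Every MttpLKO library exceeded every control library for Cfi, with a log2 fold change of 0.15 ± 0.11 SE and an edgeR adjusted p of 0.904.

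The genes with the smallest p-values were F7, Pros1, Mbl2 and C9, and their promoters are shown with that of Hc, which had the highest coefficient of variation among the 34 within DKO (28.6%). Each run covers 250 bases before and 50 bases after the RefSeq start, 5′ to 3′ on the gene's strand, from GRCm38.p6. Capitals mark matches to the motifs named afterwards.
F7 promoter, chr8:13025784-13026083, plus strand: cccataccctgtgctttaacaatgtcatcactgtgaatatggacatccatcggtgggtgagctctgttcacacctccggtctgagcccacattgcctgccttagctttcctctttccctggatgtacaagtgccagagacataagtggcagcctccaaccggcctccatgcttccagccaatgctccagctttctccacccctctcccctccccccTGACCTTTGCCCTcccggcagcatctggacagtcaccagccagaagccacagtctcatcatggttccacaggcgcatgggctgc
Pros1 promoter, chr16:62854057-62854356, plus strand: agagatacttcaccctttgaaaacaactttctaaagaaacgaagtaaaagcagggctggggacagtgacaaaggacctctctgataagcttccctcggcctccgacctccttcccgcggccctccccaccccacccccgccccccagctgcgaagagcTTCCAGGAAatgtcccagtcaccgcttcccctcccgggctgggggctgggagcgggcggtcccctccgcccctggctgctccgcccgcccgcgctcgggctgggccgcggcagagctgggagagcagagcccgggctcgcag
Mbl2 promoter, chr19:30232678-30232977, plus strand: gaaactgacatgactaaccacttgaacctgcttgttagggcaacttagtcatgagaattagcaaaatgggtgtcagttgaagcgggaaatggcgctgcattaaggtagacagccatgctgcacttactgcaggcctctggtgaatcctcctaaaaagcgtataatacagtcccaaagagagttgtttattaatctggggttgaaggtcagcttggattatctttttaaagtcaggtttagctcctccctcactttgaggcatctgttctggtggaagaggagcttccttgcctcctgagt
C9 promoter, chr15:6445096-6445395, plus strand: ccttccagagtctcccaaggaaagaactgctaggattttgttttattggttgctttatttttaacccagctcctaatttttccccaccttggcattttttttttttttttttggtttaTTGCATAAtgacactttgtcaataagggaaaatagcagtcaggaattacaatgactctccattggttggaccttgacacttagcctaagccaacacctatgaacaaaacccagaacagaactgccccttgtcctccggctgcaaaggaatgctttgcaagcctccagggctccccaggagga
Hc promoter, chr2:35061363-35061662, minus strand: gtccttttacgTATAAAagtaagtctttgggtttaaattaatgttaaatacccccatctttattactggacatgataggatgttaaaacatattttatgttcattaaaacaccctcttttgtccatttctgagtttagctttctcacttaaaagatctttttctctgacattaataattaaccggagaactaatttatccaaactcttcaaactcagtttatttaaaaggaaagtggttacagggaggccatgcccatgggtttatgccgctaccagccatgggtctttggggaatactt

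Promoters of this kind were found for 29 of the 35 genes, namely 28 of the 34 analysed and Klkb1. Motifs of liver regulators and the TATA box, 7 in all, were searched on both strands in 27025 RefSeq promoters of the same length. The HNF4 direct repeat, which is 2 copies of AGGNCA joined by an A, occurred in 0.093% of all promoters and in 1 of the 29, that of F7, on the opposite strand from 34 to 22 bases before the start. A relaxed C/EBP motif, TTGCNNAA, occurred in 10.8% of all and in 9 of 29 (31.0%), C9 among them, and TTNCGNAA in 2.46% and 2 of 29, both of which also hold the relaxed form. The STAT motif TTCNNNGAA was in 8.47% of all and in 5 of 29 (17.2%), Pros1 among them, and its narrower form TTCNNAGAA, which overlaps it, in 5.32% and 3 of 29. TATAAA was in 14.2% of all and in 4 of 29 (13.8%), Hc among them, where it lay from 239 to 234 bases before the start. The HNF4 core CAAAGTCCA was in 0.477% of all promoters and in 0 of the 29. Mbl2 matched none of the 7. These matches were counted without a test.

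Contact and intrinsic pathway genes differed little between genotypes. These are F12, which starts the contact pathway, Kng1 and Kng2, whose kininogens release bradykinin, F11, and F9, the factor lacking in haemophilia B. Their log2 fold changes ran from -0.14 to 0.14 for MttpLKO against control, from -0.04 to 0.09 for DKO against control and from -0.05 to 0.18 for DKO against MttpLKO, with 0 of 5 called and 0 of 5 at an unadjusted edgeR p under 0.05 in each. Kng1, the most abundant per length, stood at 1699, 1869 and 1982 CPM in DKO, 1839.5, 1758 and 1888 in MttpLKO and 1901, 1672 and 1631 in control. The 3 groups overlapped. Kng1 and Kng2 are close copies, and their reads may be divided between them, so their sum was also taken. It was 1878 to 2223 CPM in DKO, 1974 to 2105 in MttpLKO and 1811 to 2114 in control.

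In the extrinsic and common pathway, F7 stood out in the DKO livers. F7 encodes factor VII, the short-lived protease that pairs with tissue factor to start clotting. Its levels were 111, 124 and 124 CPM in DKO, 171, 142 and 127 in MttpLKO and 163, 159 and 152 in control. All 3 DKO libraries were below all 6 others. The log2 fold change was -0.40 ± 0.12 SE for DKO against control (1.32-fold lower, edgeR unadjusted p = 0.00659, adjusted p = 0.243) and -0.29 ± 0.12 for DKO against MttpLKO (edgeR unadjusted p = 0.0324, adjusted p = 0.490). Both comparisons use the same DKO libraries. In every leave-one-out fit the DKO value stayed below control, from -0.43 to -0.35, with adjusted p of 0.161 to 0.62. Against MttpLKO the value was -0.15 without MttpLKO replicate 1, the highest library, and -0.38 without MttpLKO replicate 3.

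The other common pathway genes stayed closer together. F2, which encodes prothrombin and was the most abundant of the group per length, stood at 1589, 1732 and 1813 CPM in DKO, 2144, 1959 and 1762 in MttpLKO and 1737, 1682 and 1585 in control. Each MttpLKO library exceeded each control library, with a log2 fold change of 0.23 ± 0.12 SE (edgeR adjusted p = 0.782). F5, the cofactor of factor Xa, showed the same separation at 413, 358 and 344 CPM in MttpLKO against 327, 322 and 301 in control (0.23 ± 0.12, edgeR adjusted p = 0.779), and 359, 323 and 395 in DKO. F10, the protease that cleaves prothrombin, had log2 fold changes of -0.06, -0.19 and -0.13 for MttpLKO against control, DKO against control and DKO against MttpLKO. F13b, the carrier subunit of the fibrin-crosslinking factor XIII, had values of 0.32, 0.15 and -0.17. Its highest library, MttpLKO replicate 1, stood at 132 CPM, against 68.8 to 99.8 in the other 8.

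Among the anticoagulants, Pros1 was highest in MttpLKO. Pros1 encodes protein S, the cofactor of activated protein C, which is also made by endothelial cells. It stood at 39.9, 31.8 and 40.8 CPM in DKO, 48.0, 50.1 and 44.96 in MttpLKO and 40.1, 32.6 and 33.6 in control. All 3 MttpLKO libraries were above all 6 others, while DKO and control overlapped. The log2 fold change was 0.43 ± 0.12 SE for MttpLKO against control (1.35-fold, edgeR unadjusted p = 0.00524, adjusted p = 0.338). For DKO against MttpLKO it was -0.35 ± 0.12 (edgeR unadjusted p = 0.0170, adjusted p = 0.401), with the MttpLKO libraries shared by the 2 comparisons. Without MttpLKO replicate 3, the library with B and plasma cell markers, the first value was 0.47 and the second -0.39. Summed sinusoidal endothelial markers were 244 to 332 CPM in DKO, 221 to 308 in MttpLKO and 291 to 348 in control, and their part in the Pros1 values was not tested.

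Serpinc1, which encodes antithrombin, the main inhibitor of thrombin, was the most abundant anticoagulant per length. It stood at 2070.4, 2293 and 2137 CPM in DKO, 2554, 2375 and 2224 in MttpLKO and 2260.5, 2466 and 2367 in control, with overlap between all groups. Its largest difference was a log2 fold change of -0.14 ± 0.11 SE between DKO and MttpLKO (edgeR adjusted p = 0.759). Serpind1 (heparin cofactor II) had log2 fold changes of 0.15, 0.00 and -0.15 in the 3 comparisons, in the order MttpLKO against control, DKO against control, DKO against MttpLKO. Proc (protein C) had -0.06, -0.23 and -0.18, and Proz (protein Z) had -0.06, -0.11 and -0.05. None of these reached an unadjusted edgeR p under 0.05.

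**Figure D3:**
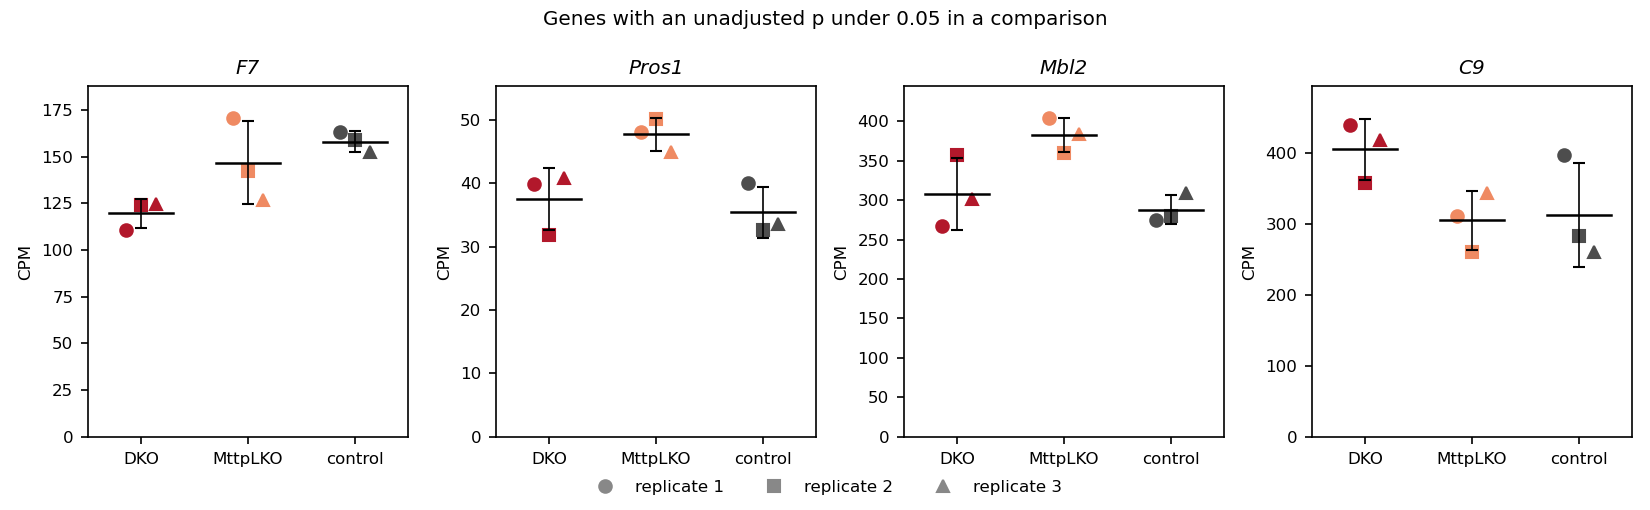
CPM in each library (points, shaped by replicate number) for F7, Pros1, Mbl2 and C9, with the genotype mean and SD (bar and whiskers, n = 3). The DKO points lie below all others for F7, the MttpLKO points lie above all others for Pros1 and Mbl2, and the DKO points lie above the MttpLKO points for C9, where control replicate 1 at 397 CPM lies within the DKO range.

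F2, F7, F9, F10, Proc, Pros1 and Proz, 7 genes in all, encode proteins that need vitamin K-dependent carboxylation to bind phospholipid. All 7 had negative log2 fold changes for DKO against MttpLKO, as did 53.1% of all genes, with a median of -0.18 and 2 unadjusted p-values under 0.05, those of F7 and Pros1. F9 lay close to 0 and turned positive in 7 of the 9 fits that left out 1 library. Without MttpLKO replicate 1, 5 of the 7 genes were negative, with a median of -0.10 and F7 at -0.15, and without DKO replicate 2 also 5, with a median of -0.19. Their summed level was 3455, 3876 and 3736 CPM in DKO, 4460 (MttpLKO replicate 1), 4172 and 3801 in MttpLKO and 4232, 3885 and 3660 in control. The DKO and MttpLKO ranges overlapped, and so did those of DKO and control. The genes of the carboxylation machinery showed no call. Of 6 listed, among them Ggcx, the carboxylase itself, 0 were called and 0 had an unadjusted edgeR p under 0.05 in any comparison. The smallest p-values belonged to Vkorc1l1 between DKO and MttpLKO (log2 fold change 0.23, edgeR adjusted p = 0.555), at 21.7, 19.97 and 24.1 CPM in DKO and 18.0, 18.6 and 19.4 in MttpLKO. Vkorc1, the vitamin K epoxide reductase blocked by warfarin, came next, with a log2 fold change of -0.30 between DKO and control (edgeR adjusted p = 0.530), at 41.8, 60.4 and 36.8 CPM in DKO and 52.7, 58.9 and 59.7 in control.

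Genes of fibrinolysis and its control differed little between genotypes. They are Plg (plasminogen), Serpinf2 (alpha-2-antiplasmin), Cpb2 (the carboxypeptidase that protects fibrin from plasmin) and Hrg, which binds plasminogen and heparin. Log2 fold changes ran from 0.04 to 0.08 for MttpLKO against control, from 0.01 to 0.22 for DKO against control and from -0.07 to 0.17 for DKO against MttpLKO. Hrg stood at 1329, 1315 and 1490.1 CPM in DKO, 1596, 1311 and 1099 in MttpLKO and 1409, 1299.8 and 1191 in control. MttpLKO held both the highest and the lowest library of the 9. Of the 4 genes, 0 were called and 0 had an unadjusted edgeR p under 0.05 in each comparison.

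In the lectin pathway, Mbl2 was highest in MttpLKO. It encodes mannose-binding lectin C, which recognises microbial sugars. Its levels were 267, 357 and 301 CPM in DKO, 404, 359.9 and 383 in MttpLKO and 275, 279.8 and 309 in control. Every MttpLKO library exceeded the 6 others, although DKO replicate 2 came close to the lowest of them. The log2 fold change was 0.41 ± 0.12 SE for MttpLKO against control (1.33-fold, edgeR unadjusted p = 0.00732, adjusted p = 0.395) and -0.31 ± 0.12 for DKO against MttpLKO (edgeR unadjusted p = 0.0301, adjusted p = 0.488). Without MttpLKO replicate 3 these were 0.40 and -0.31. Mbl1, the second mouse mannose-binding lectin, had log2 fold changes of -0.01, 0.09 and 0.10 for MttpLKO against control, DKO against control and DKO against MttpLKO. Masp1 and Masp2 encode the proteases that the lectins activate. Masp1 varied between 24.6 and 43.2 CPM within DKO alone, and its log2 fold changes were 0.04, 0.23 and 0.19. Those of Masp2 were -0.10, -0.11 and -0.01, but 54.9% of its exon bases overlap the model of Tardbp in the deposited coordinates, so its counts are uncertain.

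Of the 6 terminal complement genes, C8b and C9 were highest in DKO replicates 1 and 3 and control replicate 1, and Hc in DKO replicates 1 and 3. Hc encodes C5, which starts pore assembly, C6 follows it, C8a, C8b and C8g encode the 3 chains of C8, and C9 forms the ring of the pore. Hc stood at 719, 417 and 731 CPM in DKO, 542, 452 and 532 in MttpLKO and 497, 486 and 501 in control. C8b stood at 394, 278 and 357 in DKO, 307, 225 and 239 in MttpLKO and 402, 239 and 204 in control. C9 stood at 439.9, 358 and 418 in DKO, 312, 261 and 344 in MttpLKO and 397, 283 and 260.1 in control. DKO replicates 1 and 3 were high for all 3 of these genes and DKO replicate 2 was lower, while control replicate 1 was high for C8b and C9.

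C6 and C8a followed the same libraries. C6 stood at 305, 208.5 and 303 CPM in DKO, 265, 214 and 227 in MttpLKO and 284, 211 and 205 in control. C8a stood at 657, 463 and 678 in DKO, 594, 544 and 509 in MttpLKO and 725, 557 and 549 in control. The sum of Hc, C6, C8a, C8b and C9 was 2515, 1724 and 2487 CPM in DKO, 2020 (MttpLKO replicate 1), 1697 and 1852 in MttpLKO and 2305, 1776 and 1719 in control. C8g, the lipocalin chain of C8 and the most abundant of the 6 per length, ran the other way within DKO. It stood at 326, 523 and 368 CPM in DKO, 367, 419 and 424 in MttpLKO and 519, 478 and 471 in control. Every MttpLKO library was below every control library for C8g, at a log2 fold change of -0.28 ± 0.16 SE (edgeR adjusted p = 0.849), while DKO and control overlapped.

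Of the 6 terminal genes, 0 were called in any comparison. The log2 fold changes of all 6 were above 0 for DKO against MttpLKO, with a median of 0.25, from 0.01 for C8g to 0.42 for C8b. C8g was at -0.20 without DKO replicate 2, which left 5 of 6 above 0 and a median of 0.44, and at -0.04 without MttpLKO replicate 1, with 5 of 6 above 0 and a median of 0.34. The median was 0.16 without DKO replicate 1 and 0.15 without DKO replicate 3. C9 alone of the 6 had an unadjusted p under 0.05 there (log2 fold change 0.41 ± 0.17 SE, edgeR unadjusted p = 0.0367, edgeR adjusted p = 0.508), and its 3 DKO libraries exceeded its 3 MttpLKO libraries. For DKO against control 4 of 6 were above 0, with a median of 0.25, and C9 was at 0.37 ± 0.17 (edgeR unadjusted p = 0.0532, adjusted p = 0.450). For MttpLKO against control 4 of 6 were below 0, with a median of -0.08.

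Single pools decided the size of these values. Without DKO replicate 2, Hc was 1.48-fold higher in DKO than in control (edgeR unadjusted p = 0.000756, adjusted p = 0.0764) and 1.44-fold higher than in MttpLKO (adjusted p = 0.148), and the log2 fold change of C8g against control was -0.49 (adjusted p = 0.106). In that fit 8 of the 34 genes had an unadjusted p under 0.05 for DKO against control, in place of 1. The share of all genes at that p was not counted in the leave-one-out fits. Such counts are therefore not read as a result about the 34 genes. Without control replicate 1, C8b was 1.57-fold higher in DKO than in control (edgeR unadjusted p = 0.0066, adjusted p = 0.316) and C9 1.51-fold higher (edgeR unadjusted p = 0.00324, adjusted p = 0.243), with 6 of 34 genes at an unadjusted p under 0.05. Other omissions lowered the same values. Without control replicate 3, DKO exceeded control 1.07-fold for C8b (edgeR adjusted p = 0.974) and 1.19-fold for C9 (edgeR adjusted p = 0.859). Without DKO replicate 1, Hc was 1.16-fold higher (edgeR adjusted p = 0.817) and C9 1.24-fold higher (edgeR adjusted p = 0.696), and without DKO replicate 3 Hc was 1.14-fold higher (edgeR adjusted p = 0.831). No call at an adjusted p under 0.05 was made among the 34 genes in any of these fits.

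Saa1, an acute phase transcript, was high in the same DKO libraries. Saa1, named here after its values were seen, encodes a serum amyloid A protein and stood at 531, 46.0 and 739 CPM in DKO, 33.9, 116 and 41.4 in MttpLKO and 64.3, 55.2 and 52.8 in control. DKO replicates 1 and 3 were above all others, and DKO replicate 2 was not. Control replicate 1, high for C8b, C8a and C9, was not high for Saa1. Orm1, another listed acute phase gene named after its values were seen, was high there. It stood at 622 CPM in control replicate 1 and at 626 and 644 in DKO replicates 1 and 3, against 321 to 473 in the others. The 18 listed acute phase genes summed to 16053, 12937 and 21057 CPM in DKO, 14483, 16480 and 14360 in MttpLKO and 12410, 13424 and 13466 in control. DKO replicate 3 was above all others, while DKO replicate 1 was below MttpLKO replicate 2. Control replicate 1 had the lowest sum of all libraries, so its high Orm1 level did not stand for the list. The 15 tested male-biased liver genes summed to 5912 to 6742 CPM in DKO, 4428 to 5068 in MttpLKO and 6222 to 7503 in control. The highest male-biased sum was that of control replicate 1. The 10 tested female-biased liver genes had their lowest sum there, 48.7 CPM against 129 to 341 in the others. The part of any of these lists in the terminal complement values was not tested.

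**Figure D4:**
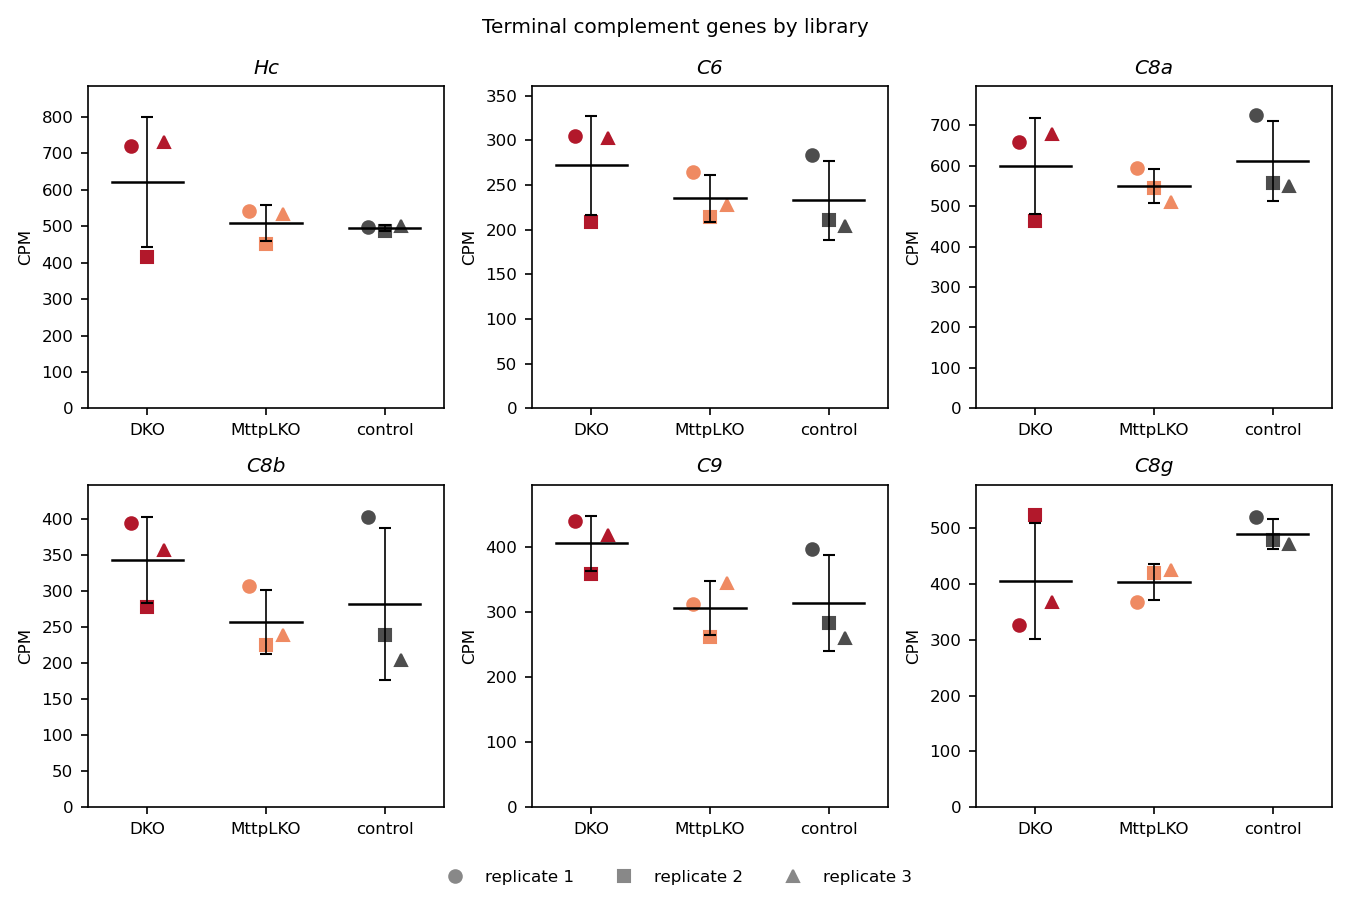
CPM in each library (points, shaped by replicate number) for the 6 terminal complement genes, with the genotype mean and SD (bar and whiskers, n = 3). Replicates 1 and 3 of DKO and replicate 1 of control are the high points for C6, C8a, C8b and C9, replicates 1 and 3 of DKO for Hc, and in C8g the DKO order is turned round, with replicate 2 highest at 523 CPM.

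The 3 complement regulators had positive log2 fold changes against control in both mutant genotypes, from 0.02 to 0.24. Serping1 encodes C1 inhibitor, which blocks the proteases of the classical, lectin and contact pathways, and was the most abundant of them per length. It stood at 852, 772.5 and 828 CPM in DKO, 795, 743 and 768 in MttpLKO and 799, 741 and 727 in control. DKO and control overlapped through 1 library each, and the log2 fold change was 0.11 ± 0.10 SE (edgeR adjusted p = 0.743). C4bp, the binding protein of C4b, stood at 435, 345 and 431 CPM in DKO, 473, 420.5 and 396 in MttpLKO and 346, 394 and 348 in control. Its MttpLKO libraries were all above control, at a log2 fold change of 0.24 ± 0.13 SE (edgeR adjusted p = 0.787). Cfi, described above by its position, encodes the protease that cleaves C3b and C4b.

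Ahsg and Vtn differed in direction in DKO. Ahsg stood at 8786, 11283 and 11027 CPM in DKO, 9639, 9356 and 9891 in MttpLKO and 9627, 8159 and 7548 in control, with a log2 fold change of 0.30 ± 0.14 SE for DKO against control (edgeR unadjusted p = 0.0627, adjusted p = 0.476). Vtn, an adhesive glycoprotein that also binds the terminal complement complex, stood at 3097, 3121 and 3043.5 CPM in DKO, 3543, 3486 and 3298 in MttpLKO and 3197, 3330.4 and 3243 in control. All 3 DKO libraries of Vtn were below all 6 others, but by little, with a log2 fold change of -0.08 ± 0.10 SE against control (edgeR adjusted p = 0.847) and -0.16 ± 0.10 against MttpLKO (edgeR adjusted p = 0.700).

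Counting libraries that do not overlap, 7 of 34 genes (20.6%) separated MttpLKO from control, where 14.3% of all genes did. F5, F2, Pros1, Mbl2, C4bp and Cfi lay above control in MttpLKO and C8g below, where 7.27% and 6.99% of all genes did so. For DKO against control 2 of 34 (5.88%) separated, F7 and Vtn, both below control in DKO, where 18.1% of all genes separated, 8.95% above and 9.18% below. For DKO against MttpLKO 5 of 34 (14.7%) separated, C9 above and F7, Pros1, Mbl2 and Vtn below in DKO, where 11.5% of all genes did, 5.67% above and 5.83% below.

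Other genes of the same pathways gave calls in 1 place only, the C1 proteases. Of 20 tested genes of coagulation and fibrinolysis outside the 34, 0 were called in any comparison by edgeR, with 4, 2 and 4 at an unadjusted p under 0.05 for MttpLKO against control, DKO against control and DKO against MttpLKO. Fga, which encodes the alpha chain of fibrinogen, stood at 2992, 2842 and 5094.5 CPM in DKO, 2365, 2316.5 and 1991 in MttpLKO and 2984, 2630.0 and 2342 in control. Every DKO library exceeded every MttpLKO library (log2 fold change 0.71 ± 0.21 SE, edgeR unadjusted p = 0.00632, adjusted p = 0.293). The sum of the 3 fibrinogen genes, taken after their values were seen, was 7869, 7786 and 13125 CPM in DKO, 6933, 6735 and 5522 in MttpLKO and 8521, 7509 and 6661 in control, so that DKO replicate 3 stood far above the rest. Gas6, a vitamin K-dependent relative of protein S, stood at 56.1, 57.8 and 63.9 CPM in MttpLKO against 46.7, 45.3 and 48.4 in control (log2 fold change 0.34 ± 0.10 SE, edgeR unadjusted p = 0.00678, adjusted p = 0.384), and 55.9, 47.5 and 56.9 in DKO.

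Of 28 other complement genes, C1rb and C1s2 were called, both higher in MttpLKO than in control and lower in DKO than in MttpLKO. Each is the near-identical second mouse copy of a protease of the C1 complex, with C1ra and C1s1 as the first copies. C1rb stood at 0.121, 0.170 and 0 CPM in DKO, 30.0, 33.2 and 31.2 in MttpLKO and 0.0404, 0.1505 and 0.217 in control. C1s2 stood at 0.241, 0.128 and 0.269 in DKO, 38.5, 40.2 and 37.6 in MttpLKO and 0.0404, 0.226 and 0.109 in control. For MttpLKO against control the edgeR adjusted p was 1.04e-06 for C1rb and 6.5e-08 for C1s2, and for DKO against MttpLKO 6.32e-07 and 7.14e-08. The sums with the first copies did not separate the genotypes. C1ra and C1rb together held 172, 181 and 179.6 CPM in DKO, 195, 182.0 and 173 in MttpLKO and 192.5, 148 and 151 in control. C1s1 and C1s2 together held 249.9, 235 and 248 in DKO, 277, 249.4 and 250.1 in MttpLKO and 249.8, 266 and 275 in control. The groups overlapped for both sums. Reads may be divided between the copies of each pair, which was not tested. The cause of the difference in C1rb and C1s2 between genotypes was not tested either.

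**Figure D5:**
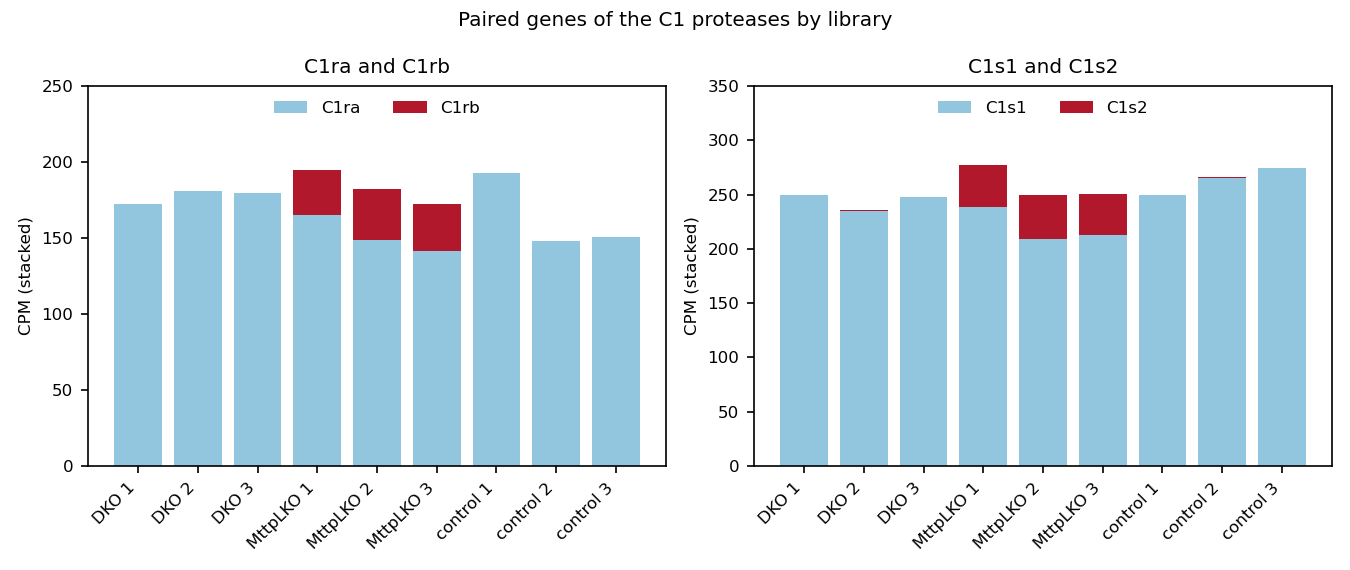
Stacked CPM of C1ra with C1rb (left) and C1s1 with C1s2 (right) in each of the 9 libraries, bars starting at 0. The second copies, in red, are visible in the 3 MttpLKO libraries, and the stacked heights of the 3 genotypes overlap at 148 to 195 CPM on the left and 235 to 277 CPM on the right.

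Of 12 transcription factors of hepatocytes, 0 were called in any comparison (edgeR), with 0, 0 and 1 at an unadjusted p under 0.05. Nr1h4, which encodes the bile acid receptor FXR, stood at 149, 162 and 144 CPM in DKO, 178, 192 and 168 in MttpLKO and 176, 168 and 174 in control, all 3 DKO libraries below all others. The log2 fold change was -0.24 ± 0.10 SE for DKO against MttpLKO (edgeR unadjusted p = 0.0328, adjusted p = 0.490).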

How the data were processed

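Poly(A) liver RNA was sequenced in 9 pooled libraries of 3 genotypes. Whole-number counts per gene, not normalized, were deposited with CPM and RPKM values that the authors computed, per the file headers. Recomputed CPM and RPKM differed from the deposited ones by at most 5.1e-11 and 4.7e-11. Per the submitters' processing notes, STAR 2.0.4b, Subread and featureCounts 1.4.5 were used, their roles not stated. Build, annotation, strand setting and treatment of multiply matching reads are not given in the labels or files used. Identifiers were named through GENCODE M21 (GRCm38), which matched 97.26%. Klkb1 was unmatched: the gene annotated at its position, chromosome 8, 45269442 to 45294859, shares 90.8% of its exon bases with other genes.

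The counts were tested in edgeR 4.0.16 (R 4.3.3) with filterByExpr at a minimum count of 10 (14741 genes kept), TMM scaling, 1 quasi-likelihood fit of 3 genotype means over all 9 libraries and Benjamini-Hochberg adjustment over all genes, threshold 0.05. The common dispersion corresponded to a biological coefficient of variation of 18.3%. Standard errors were derived from each fold change and F value, and 95% intervals from the t distribution. Printed CPM are on TMM-scaled library sizes, and RPKM as deposited. Replicate pairs differed by more than sampling noise, with chi-square values of 21.4 to 71.3 per degree of freedom, and the separateness of the pools rests on the labels. Same-numbered pools of different genotypes did not deviate together over all genes tested, so the main fit did not pair them by number. With 3 pools per genotype this cannot exclude a pairing. The fit was tested on simulated data. Alternatives were RLE and upper quartile scaling, library sizes without the 20 most abundant genes, 2 other filters, DESeq2 1.42.0, the 6 compared libraries alone, a replicate block and leaving out each library.

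The genes and lists were chosen with earlier results of these data known. Values in every library are given for genes with an unadjusted p under 0.05 or the highest RPKM of their role. In other lists, called genes or else the 2 with the smallest p are named, except 1 gene that is not reported here. Further genes were added after their values were seen: Cfi, F5, Vtn, C4bp, Hc, C6, C8a, C8b, Saa1, Orm1, Ggcx, Fgb and Fgg. Promoters came from RefSeq (GRCm38.p6).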

Additional observations from a re-analysis of the deposited data

How the results depend on the processing

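No alternative made a call among the 34 genes at an adjusted p under 0.05. Over all genes, the counts called for MttpLKO against control, DKO against control and DKO against MttpLKO were 51, 49 and 59, with no filter on low counts 171, 201 and 180, with DESeq2 166, 256 and 206, and in fits of only the 6 libraries compared 78 for DKO against control and 34 for DKO against MttpLKO. Leaving out single libraries gave 14 to 54, 15 to 100 and 22 to 73. Genes of the 34 with an unadjusted p under 0.05 numbered 2, 1 and 4, and for DKO against control 2 with no filter, 3 with DESeq2 and 2 with the replicate block. Leave-one-out fits gave 2 to 4, 1 to 8 and 1 to 6, with 8 for DKO against control and 6 for DKO against MttpLKO without DKO replicate 2. Median log2 fold changes then ran from -0.041 to 0.081, from 0.028 to 0.135 and from -0.062 to 0.101. Shares of all genes at an unadjusted p under 0.05 were not counted in the alternative fits.

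The replicate block, whose numbers are not known to pair the pools, gave 35, 40 and 43 calls over all genes and 0 among the 34. It turned C8g for DKO against MttpLKO to -0.009 on the log2 scale. Upper quartile scaling gave -0.009 for C8g and -0.004 for Kng1 in that comparison. Leave-one-out fits also crossed 0, in log2 fold changes, for Kng1 (-0.026 to 0.074), Hrg (-0.075 to 0.211) and C8g (-0.204 to 0.143) for DKO against MttpLKO, for Serpinc1 (-0.043 to 0.053), Hrg (-0.113 to 0.155), Serping1 (-0.014 to 0.066) and C9 (-0.165 to 0.17) for MttpLKO against control, and for Mbl2 (-0.009 to 0.193) and F2 (-0.009 to 0.087) for DKO against control. The cause was not tested. Of the fold changes of the 11 genes named by p-value or RPKM, 541 kept their direction and their side of the threshold and 20 turned sign. Over all 34 genes, 88 of 1734 turned sign, up to 9 of 34 in a fit, in both MttpLKO comparisons without MttpLKO replicate 1. The median standard error of the 34 genes was 0.13 in log2 in each comparison. Differences inside the intervals given are not excluded by these pools, and the intervals are not limits of detection.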

Other observations

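Acute phase genes outside the clotting and complement set gave 1 call. Lcn2, which encodes the siderophore-binding protein lipocalin 2, stood at 93.4, 80.7 and 146 CPM in DKO, 23.1, 56.8 and 64.5 in MttpLKO and 8.13, 16.3 and 18.7 in control. Every DKO library exceeded every other library, with a log2 fold change of 2.89 ± 0.41 SE against control (edgeR adjusted p = 0.0137). All 18 listed acute phase genes had positive log2 fold changes for DKO against control (median 0.50), where 49.6% of all genes did. For DKO against MttpLKO 15 of 18 were positive (median 0.57), where 46.9% of all genes were. The rise was not seen in the list sum of DKO replicate 2, 12937 CPM, which lay inside the control range of 12410 to 13466. Saa2, a second serum amyloid A gene chosen after its values were seen, stood at 251, 12.3 and 473 CPM in DKO, 12.99, 35.8 and 18.0 in MttpLKO and 22.2, 20.2 and 22.3 in control.

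C3 and the C1q genes, also chosen after their values were seen, behaved differently from the terminal components. C3, the central protein of complement, stood at 5976, 5396 and 7185 CPM in DKO, 7838, 6637 and 6118 in MttpLKO and 5612, 5375 and 5580.2 in control, and all 3 MttpLKO libraries exceeded control, at a log2 fold change of 0.31 ± 0.14 SE (edgeR adjusted p = 0.725). C1qa, a chain of the recognition protein C1q that macrophages make, stood at 36.7, 42.9 and 18.0 CPM in DKO, 11.5, 14.4 and 43.1 in MttpLKO and 34.2, 24.0 and 26.7 in control. Summed Kupffer cell and macrophage markers were 150.5, 163 and 73.1 CPM in DKO, 46.5, 56.8 and 149 in MttpLKO and 144, 113 and 103 in control. These sums and C1qa were lower in MttpLKO replicates 1 and 2 than in the other 7 libraries. C1qa was about as high in DKO replicate 2 as in MttpLKO replicate 3, and the marker sum was highest in DKO replicate 2. The part of macrophage content in C1qa was not tested.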
